A study of Mus musculus with 32 samples.

Results

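The CamK neurons of the mouse forebrain were profiled in the hippocampus and in the cortex, and the comparison of these regions is described here. It rests on 8 of the 32 libraries of the series: 4 titled CamK with a W (replicates 2 to 5), from hippocampus, and 4 titled CamK without a W (replicates 1 to 4), from cortex. Titles and tissue labels chose the libraries. Every library is labelled wild type (WT) and ribosome-associated RNA, and the labels give no driver allele, age or treatment. The other libraries used for comparison are Grik and SST hippocampus and Scnn, PV, SST and VIP cortex, with 4 libraries each. From knowledge of the study, and not from the labels, ribosomes carry an epitope tag on a ribosomal protein that is switched on by a Cre recombinase under the promoter of each population's marker gene. Nothing in the labels says whether a library came from 1 animal or several, so the p-values measure the spread between libraries, which may be partly technical.

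As background, the gene behind the CamK name encodes a calcium- and calmodulin-dependent protein kinase that is abundant at glutamatergic synapses, and its promoter is widely used to mark excitatory projection neurons of the forebrain. In the cortex these are pyramidal neurons of several layers, which send axons to other cortical areas, the striatum, the thalamus and the brainstem. In the hippocampus they are the pyramidal neurons of the CA fields and the granule cells of the dentate gyrus, linked in a circuit that is studied for memory. Grik and Scnn drivers are likewise used to mark excitatory neurons, of hippocampal area CA3 and of cortical layer IV in particular, and PV, SST and VIP mark classes of inhibitory interneurons. RNA bound to tagged ribosomes reports which transcripts such cells engage for translation. In bulk libraries like these, a smaller share of 1 neuron type and less RNA per neuron of that type cannot be told apart.

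Features are listed under GSMG identifiers that the files do not pair with gene names. The CamK label was therefore not checked against markers, no roles are given for single features, and no sequences are shown. The 8 CamK libraries held 105163128 to 110427088 deposited counts each, and 24555 of 56459 features were tested. The common biological coefficient of variation was 0.16 in hippocampus and 0.147 in cortex over features averaging 1 CPM or more (CPM, counts scaled to library size with TMM factors). All CamK hippocampus titles carry a W and no CamK cortex title does, so the effect of region and that of the title series cannot be told apart here.

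The CamK libraries separated by region along the main axis of their variation. The first principal component of log2 CPM held 47.5% of the variance, with the hippocampal libraries at 66.5 to 86 and the cortical ones at -82.5 to -73.4. Spearman correlations across features were 0.976 to 0.98 within hippocampus, 0.982 to 0.985 within cortex and 0.955 to 0.965 between regions, so every pair of libraries within a region was more alike than any pair across regions. The root mean square difference of log2 CPM had a median of 0.913 over the 6 hippocampal pairs, 0.78 over the 6 cortical pairs and 1.25 over the 16 pairs between regions. The second component (11.9%) spread the hippocampal libraries from -63.8 to 74.5 and the cortical ones only from -17.9 to 15.1.

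Most of the abundant repertoire was common to both regions. Among the 12629 features at 1 CPM or more in all 8 CamK libraries, 6896 (54.6%) had a 95% interval of the fold change that lay within 1.5-fold in either direction. Of them 1168 (9.25%) were called, 384 higher and 784 lower in hippocampus, against 13.9% of all features tested. The requirement of 1 CPM in all 8 libraries leaves out features that are low in 1 region, so this share is partly set by it. Features at 1 CPM or more in all 4 hippocampal libraries and in none of the cortical ones numbered 182, and those at 1 CPM or more in all 4 cortical libraries and in none of the hippocampal ones 255. The 100 most abundant features of each region shared 76. Of the 500 most abundant, 417 were shared.

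The regions still differed in 3411 features, 13.9% of those tested, of which 1333 (5.43%) were higher and 2078 (8.46%) lower in hippocampus (edgeR quasi-likelihood test, adjusted p under 0.05, at least 2-fold). The median log2 fold change over all features was -0.00256, with quartiles of -0.54 and 0.38. TMM scaling assumes that most features do not change, so the place of this median is largely set by the scaling. Without the fold threshold 8723 features (35.5%) passed, 4006 higher (16.3%) and 4717 lower (19.2%). Libraries of the regions did not overlap for 1063 of the 1333 higher features (79.7%) and 1837 of the 2078 lower ones (88.4%), against 15.1% and 18.6% of all features tested whose hippocampal libraries lay entirely above or entirely below the cortical ones.

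**Figure D1:**
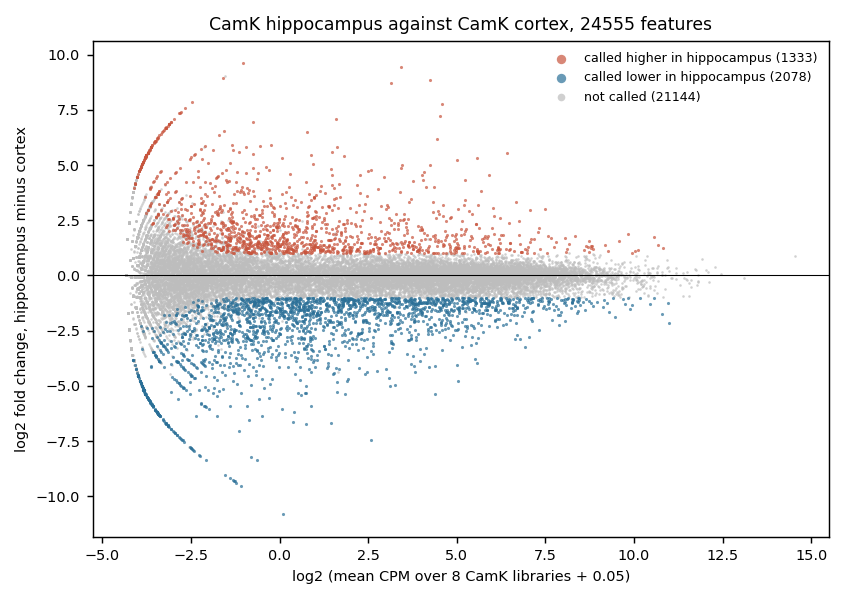
Each point is 1 of 24555 features, with the mean level over the 8 CamK libraries on the x axis (log2 of CPM plus 0.05) and the log2 fold change of hippocampus minus cortex on the y axis. Red and blue mark the 1333 features called higher and the 2078 called lower in hippocampus, and the curved edges at the left are features at 0 in 1 region.

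The largest fitted changes came mostly from features with few counts. In the higher list 98 features had no count in any cortical library, and in the lower list 160 had none in any hippocampal library. Their fitted folds depend on the prior count, and with these features set to the bound that 3 counts over the 4 libraries allow, the median log2 fold change was 1.86 for the higher list (1.88 as fitted) and -1.81 for the lower list (-1.84 as fitted). Among called features that averaged at least 1 CPM on their higher side, 758 were higher and 1333 lower (63.7% lower). At 8-fold or more these were 113 and 157 (58.1% lower), and at 32-fold or more 21 and 22 (51.2% lower). The share lower was thus closer to even among the largest of these changes. Over all called features, sparse ones included, it was 60.9% at 2-fold or more and 60.8% at 32-fold or more.

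The balance also varied with abundance. Below 0.1 CPM, taken as the mean over the 8 libraries, 3.49% of 5136 features were called higher and 4.61% lower in hippocampus. From 1 to 10 CPM these shares were 7.78% and 13.2% of 4951 features. At 100 CPM or more they were 2.15% and 5.01% of 2274 features, so that 69.9% of the calls in this class were lower, against 57% below 0.1 CPM. The median standard error of the log2 fold change was 1.31 in the lowest class and 0.09 in the highest. The median size of the change was 0.25 at 100 CPM or more and 0.43 from 1 to 10 CPM.

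**Figure D2:**
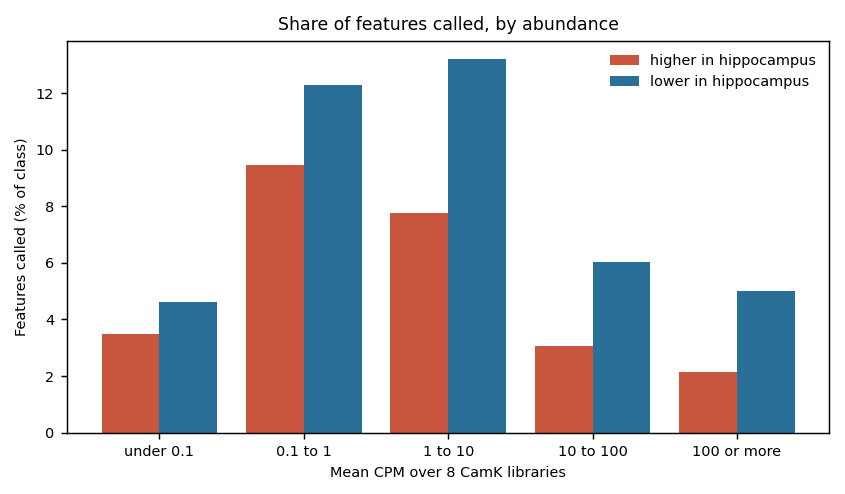
Bars give the share of features called higher (red) and lower (blue) in CamK hippocampus than in CamK cortex, in percent of the features tested in each class of mean CPM over the 8 CamK libraries. The blue bar is the taller in all 5 classes.

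Called features were somewhat longer than the features tested as a whole. The deposited length, whose unit is not stated and is presumably bases, had a median of 1840 in the higher list, 1891.5 in the lower list and 1639 over all features tested. Of 4 length classes of near-equal size, the shortest had 4.61% called higher and 6.85% called lower, and the longest 6.5% called higher and 9.88% called lower. Median abundance ran the other way, at 5.02 CPM in the shortest class and 0.998 CPM in the longest, and its part in this was not tested.

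In terms of ribosome-associated RNA, the called features made up a small part of each library. The 1333 higher features held 4.04%, 3.81%, 4.12% and 3.98% of the CPM in the hippocampal libraries, against 1.34%, 1.42%, 1.42% and 1.35% in the cortical ones. The 2078 lower features held 2.86%, 3.06%, 2.7% and 2.99% in the hippocampal libraries, against 7.59%, 7.36%, 7.46% and 7.58% in the cortical ones. The features were chosen on these libraries, so that the shares describe size and are no test. A typical higher feature had a median level of 1.42 CPM in hippocampus and 0.353 CPM in cortex, and a typical lower one 0.578 CPM in hippocampus and 2.36 CPM in cortex. At least 100 CPM were reached by 71 features of the higher list in hippocampus and by 159 features of the lower list in cortex.

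Of the higher features, 204 were changed at least 8-fold, stayed called without any 1 of the CamK libraries and had no overlap between regions, as did 351 of the lower ones. The most abundant of them, 2 in each direction, show what such differences look like library by library.

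GSMG0010979 (deposited length 4534) was the most abundant of these in hippocampus. It stood at 389.6, 299.7 and 322 CPM in hippocampus replicates 2, 3 and 4 and at 275 CPM in replicate 5, against 62.3, 42.1, 26.7 and 28.8 CPM in cortex replicates 1 to 4. Every hippocampal library was far above every cortical one, and the cortical ones varied more in proportion. The means were 322 ± 49.1 CPM in hippocampus and 40 ± 16.4 CPM in cortex (SD, n = 4 each), and the log2 fold change was 3.01 (SE 0.41, adjusted p = 1.73e-06 by edgeR), which is 8-fold and so at the edge of the rule that chose it. Among the other groups it was next highest in Grik hippocampus (198 ± 23.7 CPM), followed by SST hippocampus, whose libraries ranged from 66.7 to 276 CPM and overlapped those of Grik hippocampus and PV cortex. Scnn cortex (44.8 ± 25.8 CPM) overlapped CamK cortex, and VIP cortex was lowest at 13.3 ± 3.23 CPM. The 3 hippocampal groups thus held the top places in the order of means, although the lowest SST hippocampus library lay within the range of SST cortex (55.4 to 69 CPM).

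GSMG0018682 (length 2240) separated the regions with little spread. It stood at 192, 165, 223 and 162 CPM in hippocampus replicates 2 to 5, against 20.3, 19.4, 17.1 and 16.3 CPM in cortex replicates 1 to 4. The log2 fold change was 3.34 (SE 0.09, edgeR adjusted p = 1.37e-22). Its pattern over the other groups did not follow region. Both remaining glutamatergic populations were low, at 27.2 ± 1.79 CPM in Grik hippocampus and 17.7 ± 1.19 CPM in Scnn cortex. The interneuron groups lay in between at 103 ± 4.86 CPM in SST hippocampus, 87 ± 4.8 CPM in PV cortex, 82.2 ± 2.86 CPM in SST cortex and 61.3 ± 5.5 CPM in VIP cortex. CamK hippocampus was therefore alone in its level among the excitatory groups, with no library of another group above 106 CPM.

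GSMG0008335 (length 2105) was the most abundant feature of the rule on the cortical side. It stood at 29.7, 26.7, 20.9 and 15.4 CPM in hippocampus replicates 2 to 5, against 141, 149, 302 and 284 CPM in cortex replicates 1 to 4. Cortex replicates 1 and 2 lay well below replicates 3 and 4, but all cortical libraries lay above every hippocampal one. The log2 fold change was -3.24 (SE 0.55, edgeR adjusted p = 3.57e-05). Grik hippocampus had a like level to CamK hippocampus (20.8 ± 3.59 CPM), with overlapping libraries. Scnn, VIP and SST cortex had 84.1 ± 32.8, 81.1 ± 19.9 and 77.2 ± 23.1 CPM, overlapping each other, and the feature varied widely in SST hippocampus (10.6 to 101 CPM). PV cortex did not follow the other cortical groups, at 28.8 ± 23.6 CPM (10.1 to 63.3 CPM), and overlapped CamK hippocampus.

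GSMG0005130 (length 1370) had the largest change of the 4 features. It stood at 4.05, 8.05, 5.06 and 5.72 CPM in hippocampus replicates 2 to 5, against 75.7, 85.5, 90.5 and 102 CPM in cortex replicates 1 to 4. The log2 fold change was -3.95 (SE 0.17, edgeR adjusted p = 3.01e-18), or 15.5-fold lower in hippocampus. Scnn cortex was second at 41.2 ± 5.11 CPM and Grik hippocampus lowest at 3.93 ± 0.236 CPM, so that the excitatory groups of the cortex lay above and those of the hippocampus below all interneuron groups (9.17 to 15.5 CPM on average). Divided by length in kilobases, taking the deposited length as bases, GSMG0010979 and GSMG0018682 reached 71 and 82.8 CPM per kb in hippocampus, and GSMG0008335 and GSMG0005130 reached 104 and 64.6 CPM per kb in cortex.

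**Figure D3:**
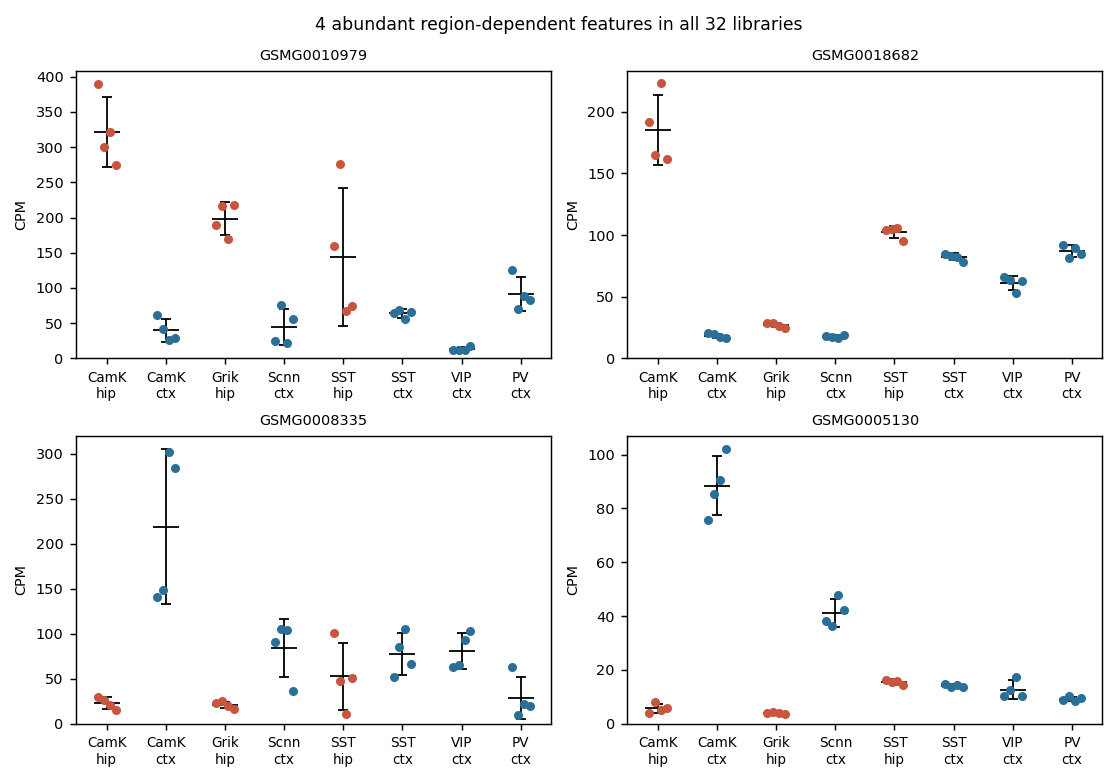
Points are single libraries and bars the mean ± SD (n = 4 per group), with CPM on the y axis and the 8 groups on the x axis, hippocampal ones (hip) in red and cortical ones (ctx) in blue. The CamK hippocampus and CamK cortex libraries do not overlap in any of the 4 panels, and GSMG0018682 is high in CamK hippocampus and low in Grik hippocampus.

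Few called features were well above 0 in 1 region and close to it in the other. Those averaging 1 CPM or more in hippocampus and under 0.1 CPM in cortex numbered 20, with a median of 1.44 CPM in hippocampus, and those with the opposite pattern 31, with a median of 1.5 CPM in cortex. In Grik hippocampus 12 of the 20 hippocampal features reached 1 CPM (median 1.17 CPM), a share near the 56.5% of all features tested. In the other groups outside CamK, 1 (Scnn cortex) to 4 (VIP cortex) of the 20 did, against 56.9% to 62% of all features tested. The median of the 20 was 0.295 CPM in SST hippocampus and 0.0786 to 0.148 CPM in the other cortical groups. In Scnn cortex 10 of the 31 cortical features reached 1 CPM (median 0.615 CPM), a smaller share than the 59.2% of all features tested. In the other groups outside CamK, 1 (Grik hippocampus) to 6 (VIP cortex) of the 31 did, against 56.5% to 62% of all features tested. These shares of all features cover every level of abundance. The median of the 31 was 0.417 CPM in VIP cortex, 0.184 CPM in PV cortex, 0.139 CPM in SST cortex, 0.0732 CPM in Grik hippocampus and 0.0509 CPM in SST hippocampus.

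Libraries outside CamK allow the regional differences to be read again. Grik hippocampus against Scnn cortex sets hippocampal against cortical excitatory neurons in 8 libraries whose values gave no CamK fold change, although the filter and the estimate of spread came from 1 fit of all libraries. Population and title series differ along with region in it. That comparison called 6734 features (27.4%), 2210 higher (9.00%) and 4524 lower (18.4%) in Grik hippocampus. Of the 1333 features higher in CamK hippocampus, 625 (46.9%) were also called higher in Grik hippocampus, against the 9.00% of all features, and 147 (11%) were called lower, against 18.4%. Of the 2078 features lower in CamK hippocampus, 1221 (58.8%) were also called lower, against 18.4%, and 86 (4.14%) were called higher, against 9.00%. These shared features were 28.3% of all those called higher and 27% of all those called lower in Grik hippocampus. The median log2 fold change of Grik hippocampus minus Scnn cortex was 1.02 in the higher list and -1.7 in the lower list, beside -0.09 over all features. The Pearson correlation of the log2 fold changes across 24555 features was 0.346 (Spearman 0.316), given as a description because features are not independent replicates and both come from 1 fit.

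**Figure D4:**
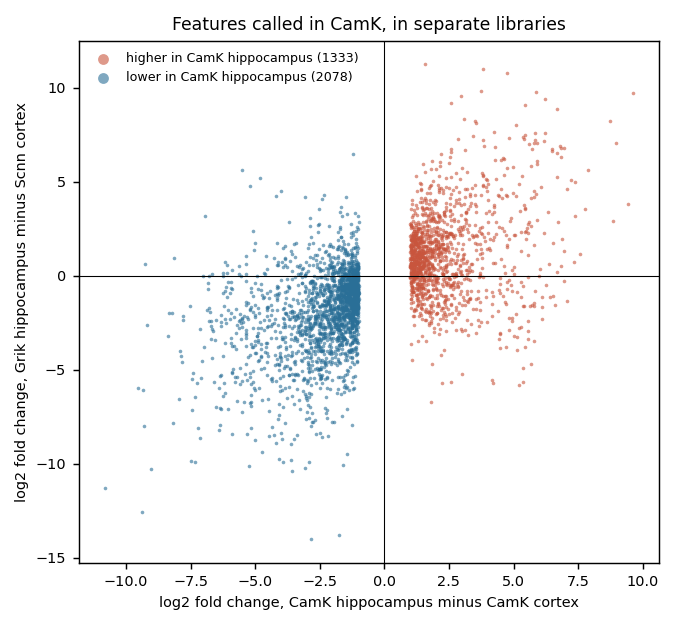
Each point is a feature called in CamK, with the log2 fold change of CamK hippocampus minus CamK cortex on the x axis and that of Grik hippocampus minus Scnn cortex, from other libraries, on the y axis. Most of the 1333 features higher in CamK hippocampus (red) lie above 0 and most of the 2078 lower ones (blue) below it, with exceptions on both sides.

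The summed levels of both lists ran in the same order in those populations. The higher list took 3.97% ± 0.0576 of the CPM in Grik hippocampus and 1.2% ± 0.029 in Scnn cortex, close to the 3.99% ± 0.134 in CamK hippocampus and 1.38% ± 0.0437 in CamK cortex (SD, n = 4 each). The lower list took 2.92% ± 0.102 in Grik hippocampus and 8.15% ± 0.554 in Scnn cortex, beside 2.9% ± 0.157 in CamK hippocampus and 7.5% ± 0.109 in CamK cortex. In SST neurons the regions lay closer together: the higher list took 2.02% ± 0.0483 in hippocampus and 1.73% ± 0.0367 in cortex, and the lower list 3.98% ± 0.184 in hippocampus and 5.41% ± 0.408 in cortex. VIP cortex, the only cortical group with a W in its titles, took 2.06% ± 0.0444 in the higher list and 6.28% ± 0.423 in the lower list. For the higher list this is near SST hippocampus and above the other cortical groups (1.2% to 1.73%). The part of the title series was not tested.

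**Figure D5:**
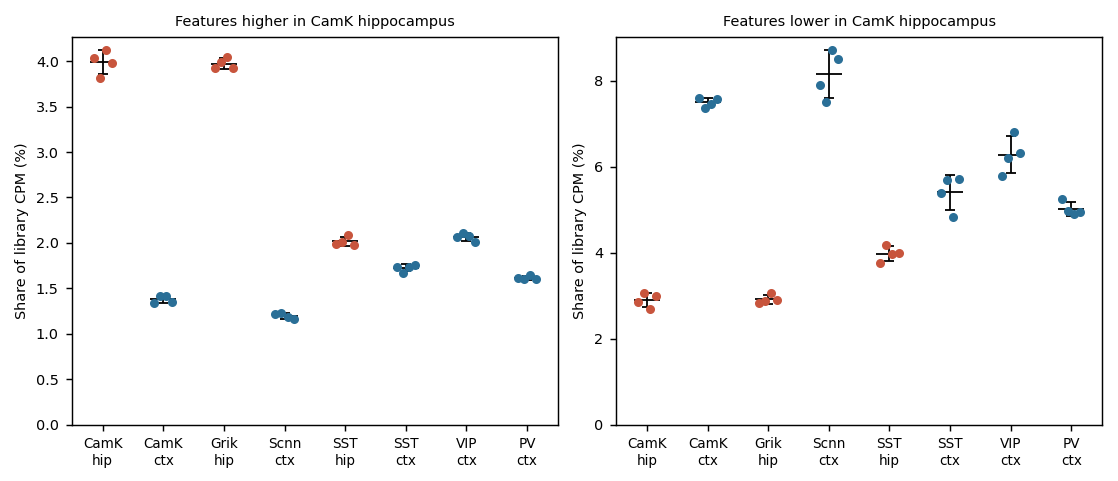
Points are single libraries and bars the mean ± SD (n = 4 per group) of the share of a library's CPM, in percent, held by the 1333 features higher (left) and the 2078 features lower (right) in CamK hippocampus, with hippocampal groups in red and cortical groups in blue. The CamK and Grik hippocampus libraries lie together near 4% on the left and near 2.9% on the right.

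Features raised in CamK hippocampus were not always highest there. Among the 8 groups, 358 of the 1333 (26.9%) had their highest mean in CamK hippocampus, 364 (27.3%) in Grik hippocampus and 318 (23.9%) in VIP cortex, a group that was highest for 24.5% of all features tested. Of the 2078 lower features, 694 (33.4%) peaked in CamK cortex, 441 (21.2%) in Scnn cortex and 386 (18.6%) in VIP cortex. Over all features tested these shares were 10.3% for CamK hippocampus, 13.2% for Grik hippocampus, 10.9% for CamK cortex and 9.55% for Scnn cortex, and the choice of the lists fixes which CamK group is the higher.

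SST neurons were the other population sampled in both regions. SST hippocampus replicate 1 held 186505391 deposited counts, against 104350512 to 114153919 in the other SST libraries. The SST comparison was not repeated without that replicate. Of the 1833 features called between SST hippocampus and SST cortex (7.46%), 963 (3.92%) were higher and 870 (3.54%) lower in hippocampus. The share called in the same direction was 22.1% of the features higher in CamK hippocampus, against 3.92% of all features, and 15.8% of those lower, against 3.54%. These were 30.5% of all features called higher and 37.8% of all those called lower in SST hippocampus. The opposite direction was called for 69 (5.18%) of the higher list, against 3.54% of all features. In the lower list it was called for 85 (4.09%), against 3.92%. Whether SST neurons shared fewer of the CamK differences than Grik against Scnn was not tested, and the SST comparison called fewer features in all. The test of the difference between the regional changes called 2659 features (10.8%), 1088 (4.43%) with a higher and 1571 (6.40%) with a lower change in CamK than in SST. In the lists this difference ran in the CamK direction for 599 of the higher features (44.9%) and 1042 of the lower ones (50.1%), of which 69 and 85 were called in the opposite direction in SST. The lists were chosen on the CamK libraries that this test also uses, so these shares are not independent of the choice. Features called in 1 direction in CamK, SST and Grik against Scnn alike numbered 181 higher and 253 lower in hippocampus, 13.6% and 12.2% of the CamK lists. The share of all features called alike in SST and in Grik against Scnn is not given here, so these shares describe size only.

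The regional changes of the 4 named features were also set against those in SST neurons. The features were chosen for a large CamK change on the libraries this test uses, so its p-values are not independent of the choice. For GSMG0005130 the SST regions had 15.5 ± 0.953 CPM in hippocampus and 14 ± 0.593 CPM in cortex, and the difference of changes, CamK minus SST, was -4.09 (SE 0.22, edgeR adjusted p = 3.22e-15). The SST change was 1.17 for GSMG0010979 (SE 0.38, adjusted p = 0.0292) and 0.32 for GSMG0018682 (SE 0.09, adjusted p = 0.00648), both in the CamK direction, and -0.55 for GSMG0008335 (SE 0.5, adjusted p = 0.498). The difference of changes was 3.02 for GSMG0018682 (SE 0.13, adjusted p = 6.98e-18), -2.69 for GSMG0008335 (SE 0.72, adjusted p = 0.00763) and 1.84 for GSMG0010979 (SE 0.54, adjusted p = 0.0148). Grik hippocampus against Scnn cortex changed in the CamK direction for GSMG0005130 (-3.39, SE 0.16, adjusted p = 7.84e-18), GSMG0010979 (2.15, SE 0.4, adjusted p = 5.94e-05) and GSMG0008335 (-2.01, SE 0.52, adjusted p = 0.00215). For GSMG0018682 that change was 0.62 (SE 0.09, adjusted p = 3.64e-07), which is under 2-fold.

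Whether the number of features detected overlapped between the regions depended on the level asked for. Features at 1 CPM or more numbered 13769, 13921, 13579 and 13849 in the hippocampal libraries, against 13801, 13909, 14111 and 13929 in the cortical ones, and the groups overlapped (exact permutation test, two-sided p = 0.171, adjusted over 3 measures 0.257). Adjustment over 3 measures leaves a single differing measure no way to pass 0.05 in groups of this size. The 100 most abundant features took 22.1% ± 0.975 of the counts in hippocampus and 21.4% ± 0.361 in cortex (SD, n = 4 each, exact permutation p = 0.229, adjusted 0.257). The share of tested features without a count was 11.1% ± 2.13 in hippocampus and 9.43% ± 0.799 in cortex (exact permutation p = 0.257, adjusted 0.257). At 5 CPM or more the groups did not overlap, with 10460 to 10604 features in hippocampus and 10682 to 10727 in cortex (exact permutation p = 0.0286, the smallest possible). At 1 CPM without TMM scaling the means were 13702 in hippocampus and 13785 in cortex (exact permutation p = 0.571). The count at 5 CPM was not repeated without TMM scaling.

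GSMG0043055, singled out after its values were seen, was either present or nearly lacking in a library. It stood at 34.5, 39, 37.6 and 0 CPM in CamK hippocampus replicates 2 to 5, against 0.498, 35, 0 and 0 CPM in CamK cortex replicates 1 to 4. Taking each fragment as 1 count, a count of 0 allows up to 0.0285 to 0.0311 CPM in these libraries, counting error only. The bound is higher if 1 fragment adds more than 1 count. Other groups were also split, with 0, 0.0203, 34.6 and 29.3 CPM in the Grik hippocampus libraries and 0.0733, 29.5, 0.17 and 29.7 CPM in the Scnn cortex libraries. Single libraries were at 0.0198 CPM in PV cortex and 0 in SST cortex, so the feature varied between libraries within groups of both regions.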

How the data were processed

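Per the labels, an RNeasy Plus Micro kit purified the RNA, and a stranded TruSeq kit turned polyadenylated RNA into libraries. Per the submitters' processing notes, featureCounts, SAMtools, Picard and FastQC were used and the build was GRCm38, with no versions or order. Aligner, annotation, counting mode and strand setting: not given in the sources used here. Overlapping, antisense and near-identical features are thus open to shared reads. The authors deposited expected counts per feature, which need not be whole: 20.1% of the values above 0 were whole within 1e-06, and 94.1% of the whole values up to 10 were even. Both mates of a pair may therefore add to a count. A length per feature is also given. Another 12 columns of per-sample values matched no labelled sample and were not used.

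Counts were rounded, then tested in edgeR 4.0.16 (R 4.3.3). The filter filterByExpr kept 24555 of 56459 features, TMM scaled the libraries, and all 32 libraries entered a robust quasi-likelihood fit by group, leaving 24 residual degrees of freedom. Features were called at a Benjamini-Hochberg adjusted p under 0.05 over all features tested and at least a 2-fold change. Standard errors are the log2 fold change divided by the square root of F. Levels are TMM-scaled CPM. Library measures were compared by exact permutation tests, two-sided, for which the smallest p is 0.0286 with 4 libraries against 4. Named features are the 2 higher and 2 lower ones with the highest mean CPM on their higher side among features changed at least 8-fold, called in the fit of all libraries and in each fit without 1 CamK library, and with no overlap between regions. DESeq2 1.42.0 was an alternative, beside other scalings, filters, sets of libraries and call rules. Populations, comparisons and lists were chosen with earlier results of these data known. Marker genes could not be looked up, since the files and reference tables pair no feature with a gene name.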

Additional observations from a re-analysis of the deposited data

Results flagged for a closer look

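The regional change differed between CamK and SST neurons for 2659 features. The 4 named ones are among them, but they were chosen for a large CamK change on the libraries this test uses, so this follows in part from the choice. The difference of the log2 changes, CamK minus SST, was 3.02 for GSMG0018682, 1.84 for GSMG0010979, -4.09 for GSMG0005130 and -2.69 for GSMG0008335.

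In 2 of 42 groups of 4 libraries examined, 1 library stood apart from the others by the Dixon criterion, which flags about 1 group in every 20 by chance. GSMG0010979 was at 18.1 CPM in VIP cortex replicate 4, against 11.3 to 12.2 CPM in the other VIP libraries. GSMG0018682 was at 95.4 CPM in SST hippocampus replicate 5, against 104 to 106 CPM in the other SST hippocampus libraries. GSMG0043055, whose split between libraries is described above, was not among the groups examined, so the 2 flags do not cover every feature shown.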

How the results depend on the processing

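Across the alternatives other than dropping the fold threshold, the CamK comparison called 2559 to 3636 features, 978 to 1509 higher and 1581 to 2127 lower in hippocampus, with 56.6% to 63.8% of them lower. The lowest counts came with a minimum of 1 CPM in 4 or more libraries, which tests fewer features, and the highest with DESeq2. Without a fold threshold 8723 features passed (4006 higher, 4717 lower), as did 13019 for Grik hippocampus against Scnn cortex, 5396 for SST hippocampus against cortex and 5694 for the difference between CamK and SST. The features shared by CamK and Grik against Scnn then numbered 2322 higher and 2526 lower. These were 58% and 53.6% of the CamK lists without the threshold, against 25.7% and 27.3% of all features. With the threshold the shares were 46.9% against 9.0% and 58.8% against 18.4%. Leaving out 1 CamK library at a time gave 3178 to 3413 calls, 1219 to 1382 higher and 1802 to 2098 lower, of which 2926 to 3066 were in the full list. The tests with an adjusted p under 0.01, without SST hippocampus replicate 1 and without the 20 most abundant features were added after seeing the data and called 2643, 3397 and 3406. The number of features at a CPM threshold differed between the regions by -158 at 1 CPM and by -174 at 5 CPM (exact permutation p = 0.0286). Without 1 library at a time the first of these was -205 to -91.2. The difference in the share of the 100 most abundant features was then 0.318 to 1.1 percentage points. That in the share of features at 0 was 0.934 to 2.46 percentage points. With all 8 libraries and a larger set of the most abundant features, the difference in their share changed sign, to -0.0947 percentage points. The means were 56.4% in hippocampus and 56.5% in cortex (exact permutation p = 0.943). The log2 fold changes of the 4 named features kept their direction and call under the 19 settings tried, of which the 8 that leave out a CamK library were part of the rule that chose them. They were 2.88 to 3.39 for GSMG0010979, 3.26 to 3.45 for GSMG0018682, -3.38 to -3.02 for GSMG0008335 and -4.14 to -3.8 for GSMG0005130.

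Libraries of the same number did not deviate together (correlations of -0.019 to -0.0176 over 3 shared numbers), and libraries did not each correlate best with their own number. So few shared numbers, read over all features, sparse ones included, cannot show whether libraries of 1 number share an animal or a batch. With the replicate block, which rests on these numbers, 3111 features were called, 1127 higher and 1984 lower. Below 0.1 CPM the median standard error was 1.31 on the log2 scale, and the parts of depth and of spread between libraries in it were not tested.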
